A study of Mus musculus with 6 samples.

Results

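Genes of antigen presentation were followed in RNA of whole eyes from the inbred mouse strain C57BL/6J. The eyes were taken either 1.5 h into the light phase or, in the other group, 9.0 h into it. The 10 genes were taken by symbol, and all 10 had a row among the 22692 genes of each deposited table. Class I was represented by B2m, H2-K1, H2-D1 and Tap1 (4 genes), and class II by Cd74, H2-Aa, H2-Ab1, H2-Eb1, H2-DMa and Ciita (6 genes). There were 3 libraries at each time. Per the labels, every library came from a pool of RNA from 5 females, 4 weeks old, enriched for poly(A) RNA. The labels name no genetic change or treatment, and the 2 groups differ only in the time. Whether replicate pools came from separate animals is not stated. The p-values therefore compare the difference between the times only with the spread of libraries within a time, and that spread may be technical. Expression values were read as RPKM, read counts scaled by gene length and library size, a unit inferred from the values. On that reading, levels can be compared between genes.

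Class I molecules are found on nearly all nucleated cells and show peptides of the cell's own proteins to cytotoxic T cells. A heavy chain, such as those made from H2-K1 and H2-D1, pairs with B2m in the endoplasmic reticulum. The pair is loaded with peptides pumped in by the transporter of which Tap1 is a subunit. Class II molecules are made mainly by professional antigen-presenting cells such as dendritic cells, macrophages and B cells, and show peptides of engulfed proteins to helper T cells. Their alpha and beta chains are escorted by the invariant chain Cd74, H2-DMa is a subunit of the peptide exchanger H2-DM, and Ciita is the master co-activator of class II genes. In the eye, resident cells with class II lie in the cornea, iris, ciliary body and choroid, and the healthy retina holds few. C57BL/6 mice carry a deletion in the promoter of H2-Ea, so the I-E molecule is not formed although its beta chain gene H2-Eb1 is intact.

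Promoter stretches of class II genes are shown to give the sequence on which their known regulators act, and no relation to the expression values was tested. Class II promoters are known for an X box, bound by RFX factors, followed by a Y box, bound by NF-Y, on which Ciita is recruited. RefSeq windows of 250 bases before to 50 after the gene start, on build GRCm38.p6, were at hand for 7 of the 10 genes. This is not the build of the deposited files (mm9), and it was used for sequence only. Capitals mark the X box core and every Y box (ATTGG, or CCAAT where it lies on the other strand), and in H2-Aa also the cyclic AMP response element TGACGTCA. H2-DMb1, the partner chain of H2-DMa, is added for comparison. All are written 5′ to 3′ on the strand of the gene, and the capitals cover matches within the stretch shown.
H2-Aa, chr17:34287857-34287914, minus strand: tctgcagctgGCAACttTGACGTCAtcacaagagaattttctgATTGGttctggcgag
H2-Eb1, chr17:34305765-34305846, plus strand: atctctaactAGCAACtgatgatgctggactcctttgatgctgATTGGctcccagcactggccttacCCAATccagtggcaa
H2-DMb1, chr17:34153086-34153144, plus strand: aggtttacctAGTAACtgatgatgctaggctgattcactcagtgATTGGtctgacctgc

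An X core AGNAAC followed on the same strand after 15 to 35 letters by ATTGG was found in H2-Eb1, with 27 letters between, and in H2-DMb1, with 28. No match to it was found in the window of H2-DMa, a class II member with a Y box, nor, with this core, in that of H2-Aa. Of all 32851 promoter windows, 0.566% held this arrangement. H2-Aa has GCAAC at the matching place, 28 letters before its Y box. The shorter core GCAAC was added after the H2-Aa sequence had been seen, and 0.521% of windows hold GCAAC followed by a Y box after 15 to 35 letters. The X core alone, on either strand, was in 48.1% of windows, so single matches carry little information. TGACGTCA was in the window of H2-Aa and in 1.79% of all windows. These are letter matches and not shown to be binding sites.

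The 2 classical class I heavy chain genes are shown for how alike their promoters are. Capitals mark Y boxes and, near the start of both stretches, the palindromic class I kappa B site. In B2m they mark the Y box and, before it, an interferon-response element. Motifs were searched on both strands. H2-K1 has another Y box, CCAAT, 8 to 12 bases after the gene start used here, beyond the end of its stretch.
H2-K1, chr17:34000349-34000468, minus strand: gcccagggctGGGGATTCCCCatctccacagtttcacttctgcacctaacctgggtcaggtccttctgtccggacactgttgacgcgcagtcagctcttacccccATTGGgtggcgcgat
H2-D1, chr17:35262913-35263055, plus strand: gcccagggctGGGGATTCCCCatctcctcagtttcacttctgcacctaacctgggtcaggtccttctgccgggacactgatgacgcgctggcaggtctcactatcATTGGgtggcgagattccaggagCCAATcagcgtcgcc
B2m, chr2:122147538-122147648, plus strand: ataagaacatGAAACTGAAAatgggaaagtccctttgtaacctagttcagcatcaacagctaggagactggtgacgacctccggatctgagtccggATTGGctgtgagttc

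The kappa B palindrome was found in 10 of the 32851 windows (0.0304%), 3 of which belong to H2-K1, with 2 listed starts, and H2-D1. It was added to the search after these sequences had been seen. A Y box on either strand was in a window of all 7 genes that had one and in 37.4% of all windows. For the interferon-response element, the pattern searched was GAAA, any 2 letters and GAAA. This exact pattern matched in the window of B2m among the 7 genes and in 3.44% of all windows, and elements with other letters were not searched for. The starts of Tap1 and Psmb9, a subunit of the immunoproteasome, lie back to back with 225 bases between them.

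The libraries were of uneven depth, with an estimated 12660000 to 31720000 reads, the shallowest being 1.5 h replicates 2 and 3. Markers of lens (Crybb2, mean 34981 RPKM) and corneal epithelium (Krt12, 1630 RPKM) were both abundant in tissue labelled whole eye. In 1.5 h replicate 1, lens, muscle, and stroma and sclera lists had median deviations from their gene means of −0.64, −0.70 and −0.63 on the log2 scale. In 1.5 h replicate 3, the Y-linked genes Ddx3y, Uty, Kdm5d and Eif2s3y had 0.126 to 0.781 RPKM although the pool is labelled female, and they were listed at 0 in the other 5 libraries. The haemoglobin gene Beta-s had 366.9 RPKM there, against 41.87 to 117.7 RPKM elsewhere. Results are therefore also given without these 2 libraries.

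B2m, H2-D1 and H2-K1 of class I had the highest mean levels of the set, whereas Tap1, also of class I, ranked below Cd74 and the class II chains. Mean levels over the 6 libraries were 113.9 RPKM for B2m, 77.6 for H2-D1 and 64.8 for H2-K1. Ranges over the libraries overlapped between neighbours in this order, although H2-K1 was below H2-D1 in every library (ratio 0.689 to 0.885). Cd74 followed with 44.8 RPKM. Its range overlapped that of H2-K1, but it was below H2-K1 and above H2-Aa, H2-Ab1 and H2-Eb1 in every library. H2-Aa, H2-Ab1 and H2-Eb1 had means of 20.7, 18.6 and 13.4 RPKM, again with overlapping ranges between neighbours. H2-Eb1 was below H2-Ab1 in every library (ratio 0.571 to 0.879). Tap1 and H2-DMa, at 4.97 and 4.35 RPKM, overlapped each other and lay below the chains. Ciita was lowest at 0.179 RPKM. In whole-eye RNA, fewer cells of a type and less RNA per cell cannot be told apart.

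**Figure D1:**
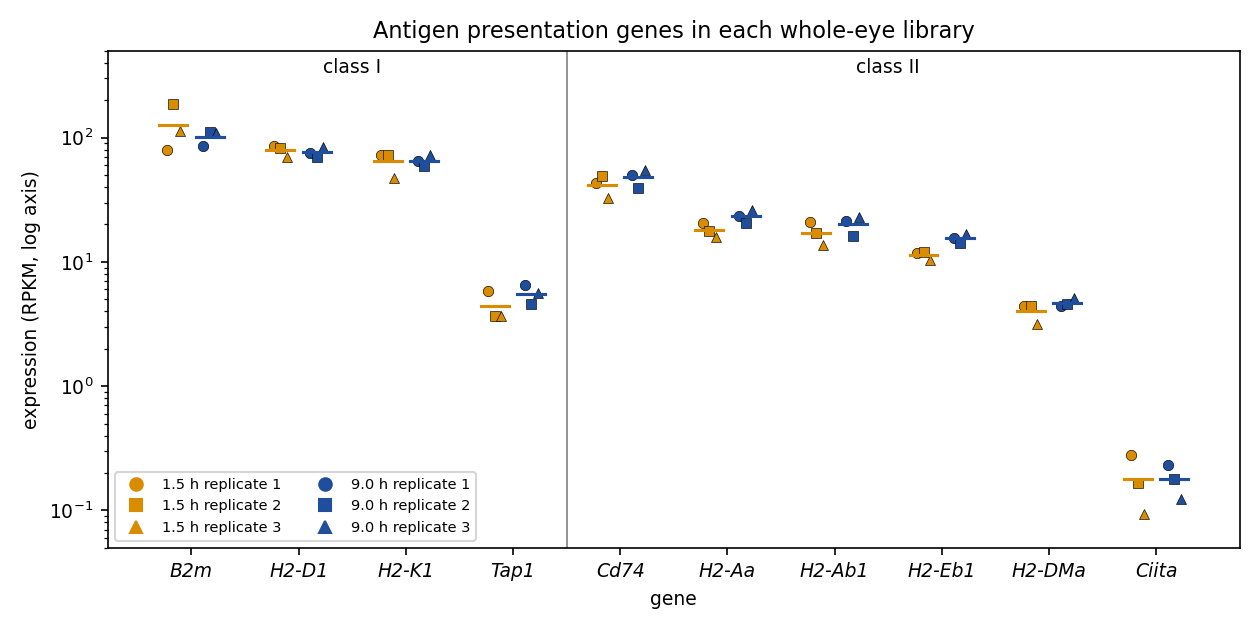
Expression of the 10 genes in each whole-eye library, in RPKM on a log axis. Points are single libraries, with marker shape for the replicate and colour for the time, and bars are means of 3 libraries. H2-Eb1 and H2-Aa are the genes whose libraries do not overlap between the times.

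The comparison asked whether either class differed between the early and the later light phase. None of the 9 tested members passed the limma test at an adjusted p of 0.05, where 30 of 13490 tested genes (0.222%) did, 0.148% higher and 0.0741% lower at 9.0 h. At an unadjusted p of 0.05, 2 members and 11.1% of tested genes passed. The 5 tested class II members all had positive log2 fold changes (9.0 h minus 1.5 h, on log2(RPKM + 0.1)), with a median of 0.24. The 4 class I members had 2 positive and 2 negative values and a median of 0.00. Over all tested genes the median was −0.003 and 49.4% of values were above 0. Ciita did not reach the level needed for testing, 1 RPKM in 3 libraries. No test of the difference between the classes was made, because the members were chosen with earlier results of these data known.

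Among the class II chains, H2-Eb1, the beta chain of I-E, measured 11.8, 12.03 and 10.3 RPKM in the early replicates, in the order 1, 2, 3 used throughout, and 15.6, 14.2 and 16.7 RPKM in the late ones. All libraries at 9.0 h lay above all at 1.5 h. The means were 11.4 ± 0.93 and 15.5 ± 1.22 RPKM (SD, n = 3 each), and the log2 fold change was 0.44 ± 0.14 (SE; 95% confidence interval 0.13 to 0.74; limma adjusted p = 0.273). H2-Ea, the alpha chain gene that would pair with it, was listed at 0 in all 6 libraries under its older symbol H2-Ea-ps. Of the 42 rows whose symbol begins with H2-, 11 were listed at 0 in every library, so a listed 0 does not single out H2-Ea.

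H2-Aa, the alpha chain of I-A, had 20.5, 17.6 and 15.8 RPKM at 1.5 h and 23.5, 20.6 and 26.1 RPKM at 9.0 h. The times did not overlap, but the highest early and the lowest late library differed little. The log2 fold change was 0.38 ± 0.15 (SE; interval 0.05 to 0.72; limma adjusted p = 0.386). Its beta chain H2-Ab1 had 20.8, 17.2 and 13.6 RPKM at 1.5 h and 21.3, 16.2 and 22.8 RPKM at 9.0 h. Here 9.0 h replicate 2 lay below 2 of the early libraries. The log2 fold change was 0.23 ± 0.19 (SE; interval −0.18 to 0.65; limma adjusted p = 0.707). H2-Aa and H2-Eb1 were thus 2 class II members with all late values above all early ones, a pattern that 9.78% of tested genes showed. Ranges that did not overlap in either direction were found for 18.2% of tested genes, and no other tested member had them.

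Cd74, the invariant chain, had 43.2, 48.8 and 32.7 RPKM at 1.5 h and 49.9, 39.6 and 54.8 RPKM at 9.0 h. The times overlapped, with a log2 fold change of 0.22 ± 0.18 (SE; interval −0.19 to 0.62; limma adjusted p = 0.723). H2-DMa had 4.45, 4.42 and 3.14 RPKM at 1.5 h and 4.38, 4.58 and 5.15 RPKM at 9.0 h. Only 1.5 h replicate 3 stood apart from the other libraries, and the log2 fold change was 0.24 ± 0.18 (SE; interval −0.15 to 0.63; limma adjusted p = 0.669). Ciita had 0.278, 0.165 and 0.0942 RPKM at 1.5 h and 0.231, 0.180 and 0.124 RPKM at 9.0 h. These levels correspond to about 7 to 48 reads per library, and the means of 0.179 ± 0.093 and 0.178 ± 0.054 RPKM (SD, n = 3 each) were not distinguishable at this depth.

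For class I, the heavy chain gene H2-K1 had 72.2, 72.9 and 47.7 RPKM at 1.5 h and 65.3, 58.7 and 72.1 RPKM at 9.0 h. The late values lay inside the early range. Its log2 fold change was 0.05 ± 0.18 (SE; interval −0.36 to 0.45; limma adjusted p = 0.951). H2-D1 had 84.8, 82.4 and 69.2 RPKM at 1.5 h and 74.8, 69.5 and 84.6 RPKM at 9.0 h, also with full overlap. Its log2 fold change was −0.05 ± 0.15 (SE; interval −0.37 to 0.28; limma adjusted p = 0.94). The 2 genes have related sequence: 17.9% of 36-base stretches of the H2-K1 transcript and 23.3% of those of H2-D1 also occur in transcripts of other genes, H2-K1 and H2-D1 among them. For 50-base stretches the shares were 8.8% and 14.3%. No read length was found in the labels to choose between them. How reads with several matches were treated is not given in the sources used here, so the split between these genes is uncertain. No such stretch was found in H2-Aa, H2-DMa or B2m, and the shares in H2-Ab1, H2-Eb1, Cd74 and Ciita were 0.2% to 1.2%.

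B2m, the light chain common to class I molecules, varied more than any other tested member. It had 80.2, 187.2 and 112.2 RPKM at 1.5 h and 85.9, 110.3 and 107.9 RPKM at 9.0 h. The high value of 1.5 h replicate 2 and the low one of replicate 1 enclosed all late libraries. Its log2 fold change was −0.24 ± 0.26 (SE; interval −0.82 to 0.35; limma adjusted p = 0.79). Without 1.5 h replicate 2 the value was 0.087, on the other side of 0. Tap1, the peptide transporter subunit, had 5.79, 3.70 and 3.69 RPKM at 1.5 h and 6.46, 4.61 and 5.58 RPKM at 9.0 h. The times overlapped through 1.5 h replicate 1, and the log2 fold change was 0.35 ± 0.21 (SE; interval −0.11 to 0.81; limma adjusted p = 0.581). A Tap1 transcript shares sequence with Psmb9 (7.4% of its 36-base stretches lie in other genes), and without a stated strand setting such reads cannot be told apart.

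**Figure D2:**
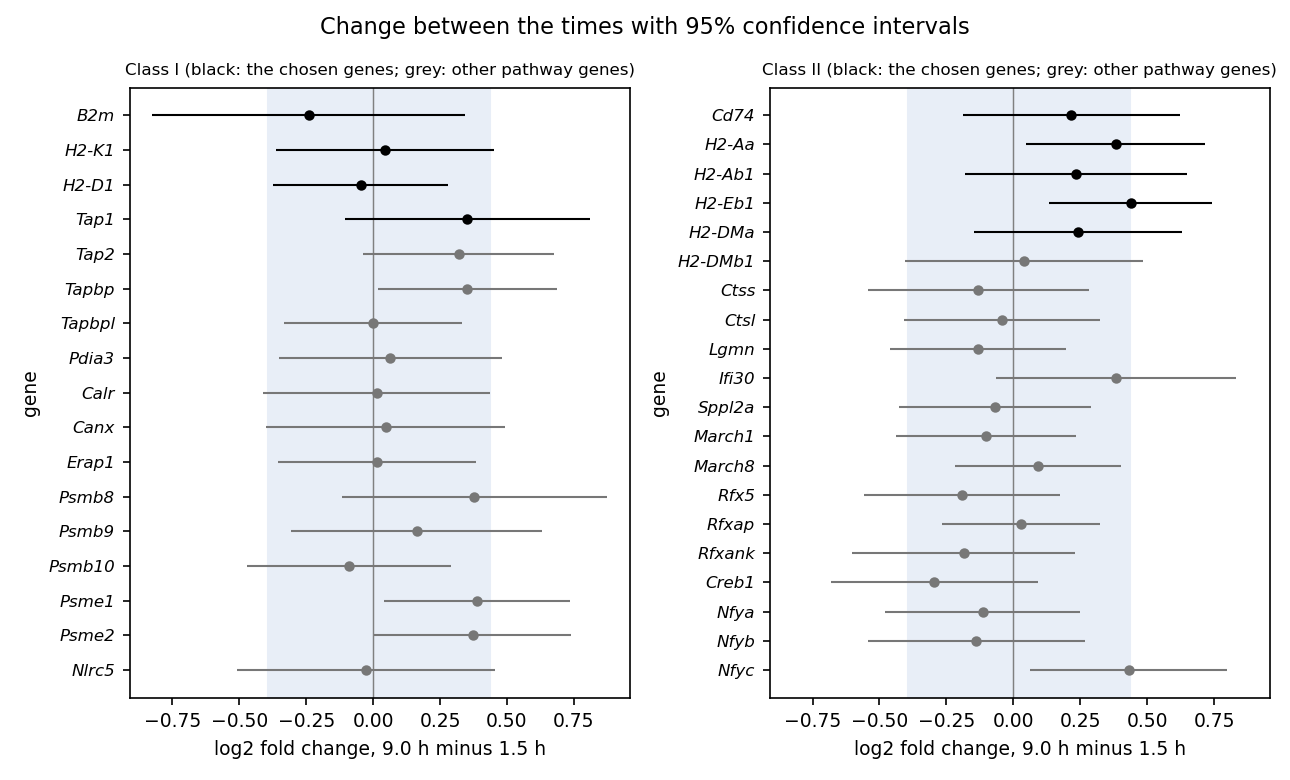
Log2 fold change (9.0 h minus 1.5 h) of tested genes of each pathway, with 95% confidence intervals from limma. Black marks the members, grey the other pathway genes, and the shaded band runs from the 5th to the 95th percentile of all tested genes (−0.39 to 0.44). The interval of each class I member includes 0, and among class II members those of H2-Aa and H2-Eb1 lie above 0. Among grey genes, those of Tapbp, Psme1, Psme2 and Nfyc also lie above 0. Intervals are per gene and not adjusted for the number of genes tested.

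Proportions between class II members are given within each library. The H2-Aa to H2-Ab1 ratio ran from 0.986 to 1.27 over the 6 libraries, and that of Cd74 to H2-Ab1 from 2.08 to 2.85. H2-Eb1 to H2-Ab1 had the values 0.571, 0.701 and 0.762 at 1.5 h and 0.731, 0.879 and 0.731 at 9.0 h, so the times overlapped. In class I, the H2-K1 to H2-D1 ratio was 0.845 to 0.872 in the late libraries and 0.689 to 0.885 in the early ones. The ratio of B2m to the sum of both heavy chains was less steady. It was 0.511, 1.21 and 0.959 at 1.5 h and 0.613, 0.86 and 0.689 at 9.0 h.

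Most members were low in the same early library. In 1.5 h replicate 3, 9 of the 10 members had their lowest value, including all 6 of class II, and 17.7% of tested genes did. In 9.0 h replicate 3, 5 of the 6 class II members and none of class I had their highest value, against 12.1% of tested genes. The median deviation of the class II members from their gene means was 0.005, −0.094 and −0.433 in 1.5 h replicates 1 to 3 and 0.202, 0.015 and 0.313 in 9.0 h replicates 1 to 3. For class I it was 0.153, 0.138 and −0.273, and −0.010, −0.100 and 0.150. Without 1.5 h replicate 3 the class II median log2 fold change was 0.079, with Cd74 at 0.053, H2-Ab1 at 0.075 and H2-DMa at 0.079. H2-Aa and H2-Eb1 then had 0.293 and 0.37 (limma adjusted p = 0.655 and 0.533), and the class I median was −0.146. In that fit 0.0748% of tested genes passed and no member did.

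Leaving out 1.5 h replicate 1 changed calls in both classes. H2-Aa and H2-Eb1 then passed with log2 fold changes of 0.48 and 0.467 (limma adjusted p = 0.0317 and 0.0427), and Tap1 with 0.563 (0.0204). B2m passed in the other direction, at −0.524 (0.0232). In that fit 9.11% of all tested genes passed, and the 4 of 9 members are to be read against that share. With the replicate number as a block 1.05% of tested genes and no member passed. With array weights 16.6% of tested genes passed, and among them were all 5 tested class II members, H2-K1 and Tap1.

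**Figure D3:**
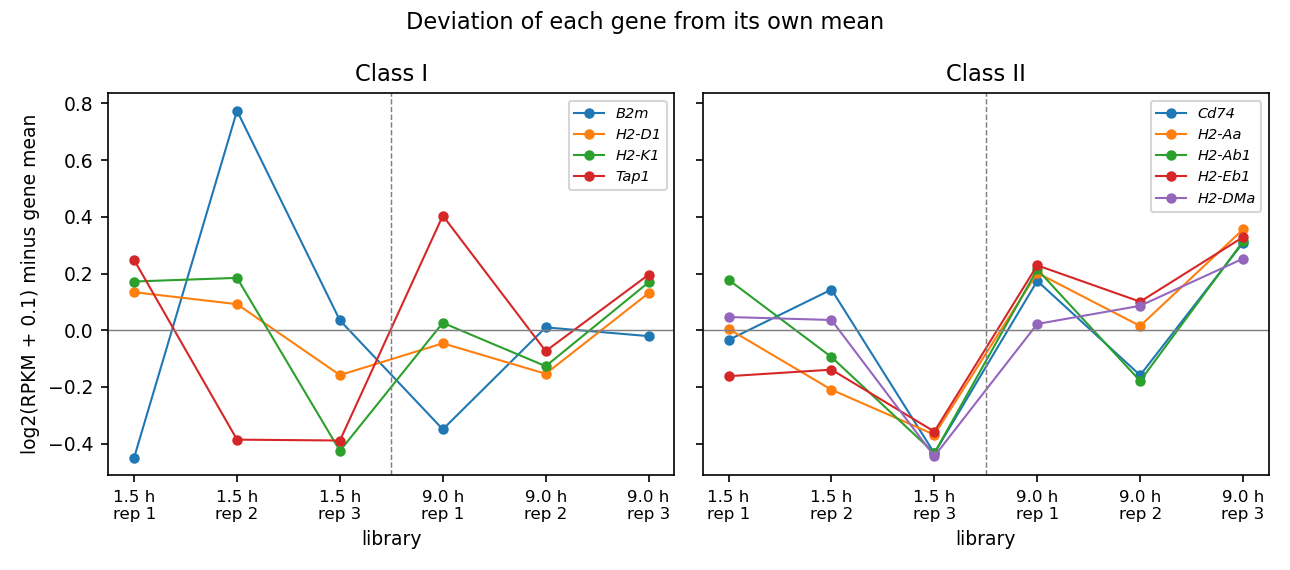
Log2(RPKM + 0.1) of each tested member minus its own mean over the 6 libraries, for class I and class II. Lines only join the points of 1 gene, and the dashed line separates the times. The 5 class II genes are all lowest in 1.5 h replicate 3 and highest in 9.0 h replicate 3. The class I genes differ from each other, with B2m highest and Tap1 near its lowest value in 1.5 h replicate 2.

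Other genes of class I loading showed no call either. Of 13 further genes, 13 were tested, 11 had positive values and the median was 0.06. Calr and Canx, chaperones of heavy chain folding and the most abundant of them, had log2 fold changes of 0.01 and 0.05. Psme1 and Psme2, which form a proteasome activator, had 0.39 and 0.37, and Tapbp, which bridges the transporter and the empty class I molecule, had 0.35. These 3 had the lowest unadjusted p of the list and were named after their values were seen, and limma adjusted p was between 0.398 and 0.447. Nlrc5, the class I co-activator, had −0.03. Nlrc5 here, and H2-DMb1, Rfx5 and Irf1 further on, were likewise singled out with their values known.

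Of 17 class I-like and nonclassical genes, 8 were tested and none was called, with a median of 0.02. Fcgrt, the neonatal Fc receptor, was the most abundant, with 21.9 and 33.3 RPKM at the 2 times and a log2 fold change of 0.62 (limma adjusted p = 0.192). H2-T23, which encodes Qa-1, had 0.34. H2-T24 had −0.78 (limma adjusted p = 0.215) and was named after its value was seen. In this list, H2-T23, H2-Q1, H2-Q4 and H2-Q7 are among the genes that share 36-base stretches with H2-K1 or H2-D1. H2-Q7 and H2-Q9 were listed at 0 throughout.

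Other class II pathway genes had values on both sides of 0. Of 13 genes, 8 were tested, 3 had positive values and none was called, with a median of −0.05. Ctsl and Lgmn, lysosomal proteases that cut antigen and invariant chain, were the most abundant, with log2 fold changes of −0.04 and −0.13. H2-DMb1 had 0.04, beside 0.24 for its partner H2-DMa. The 5 untested genes, H2-Oa and H2-Ob among them, had at most 0.399 RPKM in any library. Of 7 genes for the factors that bind class II promoters, 2 had positive values and none was called. Nfyc and Nfyb, subunits of NF-Y, had 0.43 and −0.14, and Rfx5, an X box factor, had −0.19.

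Interferon gamma is the classical inducer of both classes, and Ifng was listed at 0 in all 6 libraries. Of 23 genes of its pathway and response, 18 were tested, 10 were positive and none was called, with a median of 0.01. The receptor gene Ifngr1 and the kinase gene Jak1 had 0.03 and 0.04, and Irf1, a factor that acts on class I promoters, had 0.08. Of 6 co-stimulation genes, 3 were tested and none was called. Cd274, which encodes the inhibitory ligand PD-L1, had 7.97 RPKM early and 5.81 RPKM late, a log2 fold change of −0.42 with a limma adjusted p of 0.447, and Icosl had −0.09.

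Markers of cells that could carry class II are given beside these values. The macrophage and microglia list had 17 of 18 genes tested, 10 positive and none called. Its log2 fold changes ran from −0.45 to 0.48 with a median of 0.05. Its summed level was 188.7 to 231.2 RPKM at 1.5 h and 183.1 to 202.5 RPKM at 9.0 h. Lyz2 and C1qb, its most abundant members, had −0.45 and 0.07. The 8 dendritic cell genes summed to 3.05 to 4.19 RPKM and 3.35 to 3.79 RPKM at the 2 times, with Zbtb46 and Batf3 highest. The 4 B cell genes, with Cd79b and Cd79a highest, summed to 0.613 to 1.23 and 0.800 to 1.26 RPKM. The 6 T cell genes, with Cd4 and Cd2 highest, summed to 0.551 to 0.725 and 0.701 to 0.987 RPKM, and none of the B or T cell genes was abundant enough to test.

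The corneal epithelium list was lowest and highest in the same libraries as the class II members. Its median deviations were −0.061, 0.033 and −0.287 at 1.5 h and 0.078, −0.052 and 0.258 at 9.0 h. Of its 8 genes, 6 were lowest in 1.5 h replicate 3 and 4 were highest in 9.0 h replicate 3. Its most abundant members Krt12 and Aldh3a1, both highest in 1.5 h replicate 2, had log2 fold changes of −0.04 and 0.05. Over the list, 6 of 8 values were positive, and the median was 0.23 with none called. Macrophage and microglia genes had deviations of −0.167, 0.128, 0.005, 0.096, −0.105 and 0.037 in the same order. The part of tissue make-up in the class II values was not tested. Stroma and sclera genes had a median of 0.76 and lens genes 0.36, and neither list had a called gene. Their most abundant genes differed, with Dcn at −0.07 and Col1a1 at 1.52, and Crybb2 at −0.09 and Cryaa at 0.78. Further lists had medians of 0.22 for muscle, 0.05 for endothelium and −0.17 for pigment epithelium, with Tcap, a sarcomere protein, as the called gene (log2 fold change 1.31, limma adjusted p = 0.0224).

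**Figure D4:**
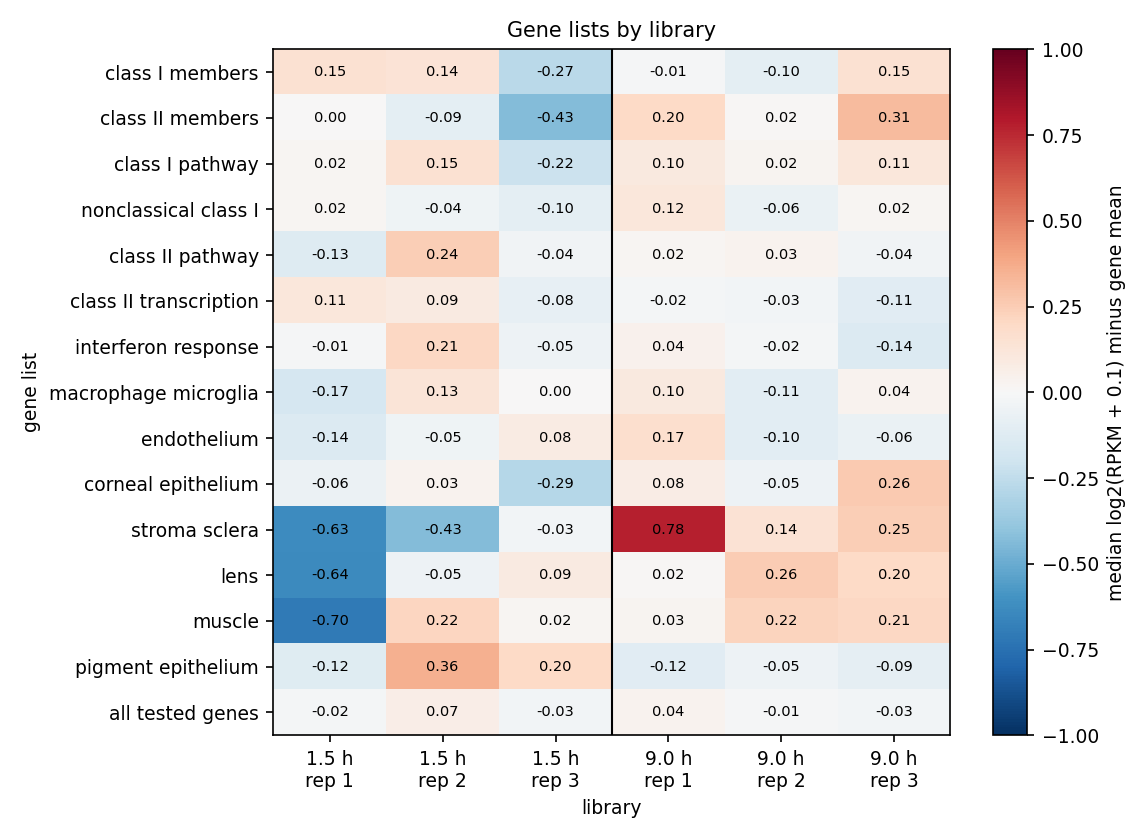
Median deviation of the gene lists shown from its gene means, log2(RPKM + 0.1), in each library (columns, 1.5 h left and 9.0 h right of the line). Class II members and corneal epithelium are both lowest in 1.5 h replicate 3 and highest in 9.0 h replicate 3. Lens, muscle, and stroma and sclera are among the lists lowest in 1.5 h replicate 1.

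The genes whose profiles over the 6 libraries lay nearest to the class II mean profile were Arpc1b, Alad and Eps8l2. Their root mean square distances to it were 0.036, 0.038 and 0.039 on the log2 scale. Nearest to the class I mean profile were Tmem176b, Pcgf5 and Ilkap, at 0.021, 0.026 and 0.032. These were the smallest distances among all other tested genes, and all values share the depth and tissue make-up of the same libraries. The class I mean profile averages members that differ, such as B2m and Tap1 in 1.5 h replicate 2. A small distance to it is therefore not closeness to each class I member.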

How the data were processed

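The authors deposited 1 table of RPKM per gene for each library. No header states the unit, which was inferred from the values. The submitters' processing notes name GSNAP, HTSeq and build mm9. Tool versions, annotation, strandedness and the handling of multiple matches: not given in the sources used here. Total reads were estimated to the nearest 10000 from the step of RPKM times length in genes with 1 GENCODE M21 transcript, where 69.9% to 74.7% of low values lay within 0.1 read of a whole number. At the lowest depth, 3 reads on 2 kb equal 0.118 RPKM, which covers counting error only.

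Genes with at least 1 RPKM in 3 libraries were tested with limma 3.58.1 (R 4.3.3; eBayes with trend and robust settings) on log2(RPKM + 0.1), 9.0 h against 1.5 h, two-sided, with Benjamini-Hochberg adjustment over all 13490 tested genes. The fit was tested on simulated data. The pseudocount understates changes of low genes.

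The members and all gene lists were chosen with earlier results of these data known, so lists are described by counts and medians. Named genes are the members, called genes of each other list and its 2 most abundant genes, and the 3 nearest profiles per class. Other genes were named with their values known. The values of 1 tissue list are not reported here. List symbols not in the tables were matched through RefSeq synonyms. Promoter motifs were exact letter matches; 2 were added after the sequences had been seen. Alternatives were other pseudocounts, filters and scalings, array weights, a replicate block and leaving out each library.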

Additional observations from a re-analysis of the deposited data

How the results depend on the processing

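The number of genes called higher and lower at 9.0 h was 20 and 10. It was 9 and 6 with median-of-ratios scaling, 10 and 5 after quantile normalization, 87 and 54 with the replicate block, and 1419 and 825 with array weights. At a pseudocount of 0.01, 6 genes were lower, and with at least 5 RPKM in 3 libraries 3 were. Leaving out 1 library gave 0 to 663 higher and 2 to 556 lower. The higher and lower numbers were 663 and 556, 38 and 8, and 8 and 2 without 1.5 h replicates 1, 2 and 3, and 1 and 2, 3 and 5, and 0 and 2 without 9.0 h replicates 1, 2 and 3. No member of class I or II was called in any of these settings, except 2 of class I and 5 of class II with array weights, where the medians were 0.251 and 0.523, and up to 2 of each class when a library was left out (0 to 2; 2 of each without 1.5 h replicate 1, and 0 without any other). The array weights stopped before they converged and gave 1.5 h replicate 3 a weight of 5.52. Leaving out 1 library gave medians of −0.146 to 0.118 for class I and 0.079 to 0.381 for class II. The 5 tested class II members and Tap1 had positive values in every setting in which they were tested. Class I members other than Tap1 changed sign. H2-K1 had −0.049 after quantile normalization and −0.155 to 0.149 when a library was left out, negative without replicate 3 of either time. H2-D1 had 0.113 with array weights and −0.136 to 0.02 when a library was left out, positive without 1.5 h replicate 1 or 9.0 h replicate 2. B2m had −0.524 to 0.087, positive without 1.5 h replicate 2. The cause of these differences was not tested. In the replicate block, class I and II medians were 0.0 and 0.241 and no member was called. Ciita entered only without a filter on low values, at 0.031 (limma adjusted p = 0.984). Deviations of same-numbered libraries correlated across genes at 0.35, 0.48 and −0.21, and those of differently numbered ones at −0.539 to 0.225. Deviations from a mean of 3 libraries are not independent, so whether the numbers pair the libraries is not settled. With 3 libraries a time, intervals of members were wide, and depth limits mainly Ciita.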
